A study of Macaca mulatta with 12 samples.

Results

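The miRNAs described here are the 6 pre-miRNAs mml-mir-142, mml-mir-146a, mml-mir-146b, mml-mir-150, mml-mir-155 and mml-mir-223 of rhesus macaque, *Macaca mulatta*, chosen by name as miRNAs known from blood and immune cells, out of 831 pre-miRNAs of the study's list whose sequences could be used. The list annotates 10 mature miRNAs on them, and 1 further arm, mml-miR-223-5p, was defined from the reads because the list leaves it open. Of these 11 arms 9 passed the filter on low values, among 371 of 1218 mature sequences that did. The 2 that did not were mml-miR-146a-3p and mml-miR-146b-3p.

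Small RNAs of 12 samples from 8 tissues were sequenced. The animals were wild-type macaques of 36 months without treatment, so that all groups share genotype and age and differ, as far as the labels say, in the tissue. There were 2 profiles each of muscle, kidney and both intestines, and 1 each of liver, lung, occipital lobe and spinal cord. The study collected its tissues from a pair of animals, nothing in the labels ties a profile to an animal, and the p-values below therefore measure the spread between these profiles. Each profile held 22118095 to 25579064 valid reads, of which 35.9% (liver) to 68.4% (kidney 1) were assigned to mature miRNAs. Levels are given as RPTM, reads per 10000000 valid reads, on which scale 1 read stands for at most 0.452 RPTM.

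A pre-miRNA is a hairpin from whose 5′ and 3′ sides mature miRNAs are cut, and the side with more reads is called the leading arm here. The seed, bases 2 to 8 of the mature miRNA, selects the target mRNAs, so that miRNAs with a shared seed have largely shared targets. miR-142 is known from all blood cell lineages, miR-150 from mature lymphocytes, miR-223 from granulocytes and monocytes, miR-155 from activated lymphocytes and macrophages, and the miR-146 pair as feedback inhibitors of signalling from Toll-like receptors. In whole tissue their reads come from resident and circulating leukocytes and from any other cell that makes them, and in such bulk samples fewer cells of a type and less RNA per cell cannot be told apart.

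The sequences of the arms are shown first, because the seeds and the ends of the reads bear on the counts. They are those of the study's list and, for mml-miR-223-5p, of the most abundant read, with the seed in capitals, 5′ to 3′.
mml-miR-142-5p: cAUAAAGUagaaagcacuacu
mml-miR-142-3p: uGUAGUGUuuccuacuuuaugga
mml-miR-146a-5p: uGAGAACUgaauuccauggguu
mml-miR-146b-5p: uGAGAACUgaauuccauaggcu
mml-miR-146a-3p: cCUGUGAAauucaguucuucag
mml-miR-146b-3p: uGCCCUGUggacucaguucugg
mml-miR-150-5p: uCUCCCAAcccuuguaccagug
mml-miR-150-3p: cUGGUACAggccugggggaca
mml-miR-155-5p: uUAAUGCUaaucgugauaggggu
mml-miR-223-3p: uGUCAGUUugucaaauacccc
mml-miR-223-5p: cGUGUAUUugacaagcugaguuggaca

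Only mml-miR-146a-5p and mml-miR-146b-5p shared a seed, GAGAACU, and no other mature miRNA of the 1218 had it. Counted from 1 at the 5′ end, they differ by G18A and U21C from mml-miR-146a-5p to mml-miR-146b-5p. Reads that matched both hairpins equally well were 973, which is 2.19% of the reads of mml-mir-146a and 0.252% of those of mml-mir-146b. In the RefSeq gene list of the macaque assembly T2T-MMU8v2.0, used for names only, 5 of the 6 genes were found by symbol. There MIR155 lies within its host gene MIR155HG, and MIR223 is next to VSIG4, a gene of tissue macrophages.

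mml-miR-142-5p, of the miRNA most widely shared among blood cells, was lowest in the brain and spinal cord, and on the RPTM scale highest in lung. Its levels were 487 and 466 RPTM in muscle, 413 and 277 in kidney, 1820.1 and 1160.3 in small intestine, 749.6 and 1260.4 in large intestine, 882 in liver, 2550.4 in lung, 99.1 in occipital lobe and 247 in spinal cord. The highest profile exceeded the lowest by 25.7 times. Lung lay above all other profiles, both neural profiles lay below all others, and the ranges of small and large intestine overlapped. With TMM-scaled counts, the scaling of the tests below, the highest was small intestine 1 at 4889, with lung at 2957. The other arm, mml-miR-142-3p, was lower in every profile, with 25.4 and 24.0 RPTM in muscle, 37.5 and 24.0 in kidney, 189 and 121 in small intestine, 75.1 and 85.9 in large intestine, 80.7 in liver, 153 in lung, 8.26 in occipital lobe and 41.0 in spinal cord. It made up 4.89% to 14.2% of the reads of both arms, with a median of 8.14%. The highest share was that of spinal cord, 14.2% (Wilson 95% interval 11.8% to 17%, 689 reads, counting error only), beside 7.69% (4.98% to 11.7%, 247 reads) in occipital lobe. Its interval lay apart from the others under this counting only. With all aligned reads it was 9.70% (8.59% to 10.9%), overlapping kidney 1 (7.35% to 9.09%), and with identical reads 11.8% (8.96% to 15.4%), overlapping several profiles.

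mml-miR-150-5p, the lymphocyte miRNA, was highest in lung and lowest in kidney. It was at 1473 and 2354 RPTM in muscle, 161 and 128 in kidney, 871 and 1019.8 in small intestine, 609.9 and 855 in large intestine, 238 in liver, 6881 in lung, 348 in occipital lobe and 679 in spinal cord. The highest profile was 53.7 times the lowest, lung was above and kidney below all other profiles, and muscle followed lung in the order. Its 3′ arm, mml-miR-150-3p, ranged from 1.56 RPTM in kidney 1, or 4 reads, to 26.7 in lung, or 61 reads, and was 0.311% to 4.32% of both arms.

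mml-miR-223-3p, the myeloid miRNA, was low in 11 profiles and high in 1. It was at 22.9 and 47.1 RPTM in muscle, 30.1 and 35.5 in kidney, 74.1 and 64.5 in small intestine, 91.8 and 68.4 in large intestine, 134 in liver, 816 in lung, 20.9 in occipital lobe and 43.5 in spinal cord. Lung was above all other profiles, and liver was next in order on the RPTM scale, while with TMM-scaled counts large intestine 1, at 234, was above liver, at 217. The arm defined from reads, mml-miR-223-5p, was also highest in lung, with 80.9 RPTM against 0.869 to 11.9 in the others. With 2 to 28 reads outside lung its share of both arms was imprecise, at 1.82% to 24.7%, and in lung it was 9.02% (Wilson 95% interval 7.85% to 10.3%).

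mml-miR-155-5p, the miRNA of activated lymphocytes and macrophages, was highest in the intestines. It was at 68.4 and 132 RPTM in muscle, 177 and 72.3 in kidney, 239 and 288 in small intestine, 231 and 381 in large intestine, 46.4 in liver, 147 in lung, 15.6 in occipital lobe and 50.6 in spinal cord. All 4 intestinal profiles were above every other profile, the 2 intestines overlapped, and liver and both neural tissues were lowest. The 3′ side of its hairpin gave 8 exact reads in all 12 profiles together, fewer than the 10 set for defining an arm, so that no level is given for it.

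The miR-146 pair differed in level and in pattern. mml-miR-146a-5p was at 301 and 186 RPTM in muscle, 530.1 and 723 in kidney, 1533 and 978 in small intestine, 920.5 and 2587 in large intestine, 644 in liver, 1309 in lung, 438 in occipital lobe and 422 in spinal cord. Muscle was below every other profile on the RPTM scale, though not with TMM-scaled counts (305 and 536 in muscle, 309 in spinal cord), and the large intestine profiles differed by 2.81 times, the widest gap between 2 profiles of a tissue for a leading arm. mml-miR-146b-5p was at 5521.5 and 7226 RPTM in muscle, 14988 and 16094 in kidney, 8509 and 6229 in small intestine, 7264 and 12142 in large intestine, 7746 in liver, 13677 in lung, 5873 in occipital lobe and 9787 in spinal cord. It varied by 2.91 times over the 12 profiles, or 6.91 times with TMM-scaled counts, made up 53.9% (lung) to 92.9% (kidney 2) of the reads of the 6 leading arms, and on the RPTM scale both kidney profiles lay above all others. On other scales they did not. With all aligned reads lung, at 20684 RPTM, was above kidney 1, at 18638, and with TMM-scaled counts large intestine 2, at 36053, was above kidney 1, at 27953. Per 10000000 assigned reads lung was highest, at 29526, and with identical reads large intestine 2 was, at 449.8 RPTM. The ratio of mml-miR-146a-5p to mml-miR-146b-5p within a profile, which no scaling of libraries can change, was lowest in muscle 2 at 0.0257 and highest in large intestine 2 at 0.213, and all 4 intestinal profiles had a higher ratio than every other profile. No read was counted for mml-miR-146a-3p or mml-miR-146b-3p under the exact rule.

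**Figure D1:**
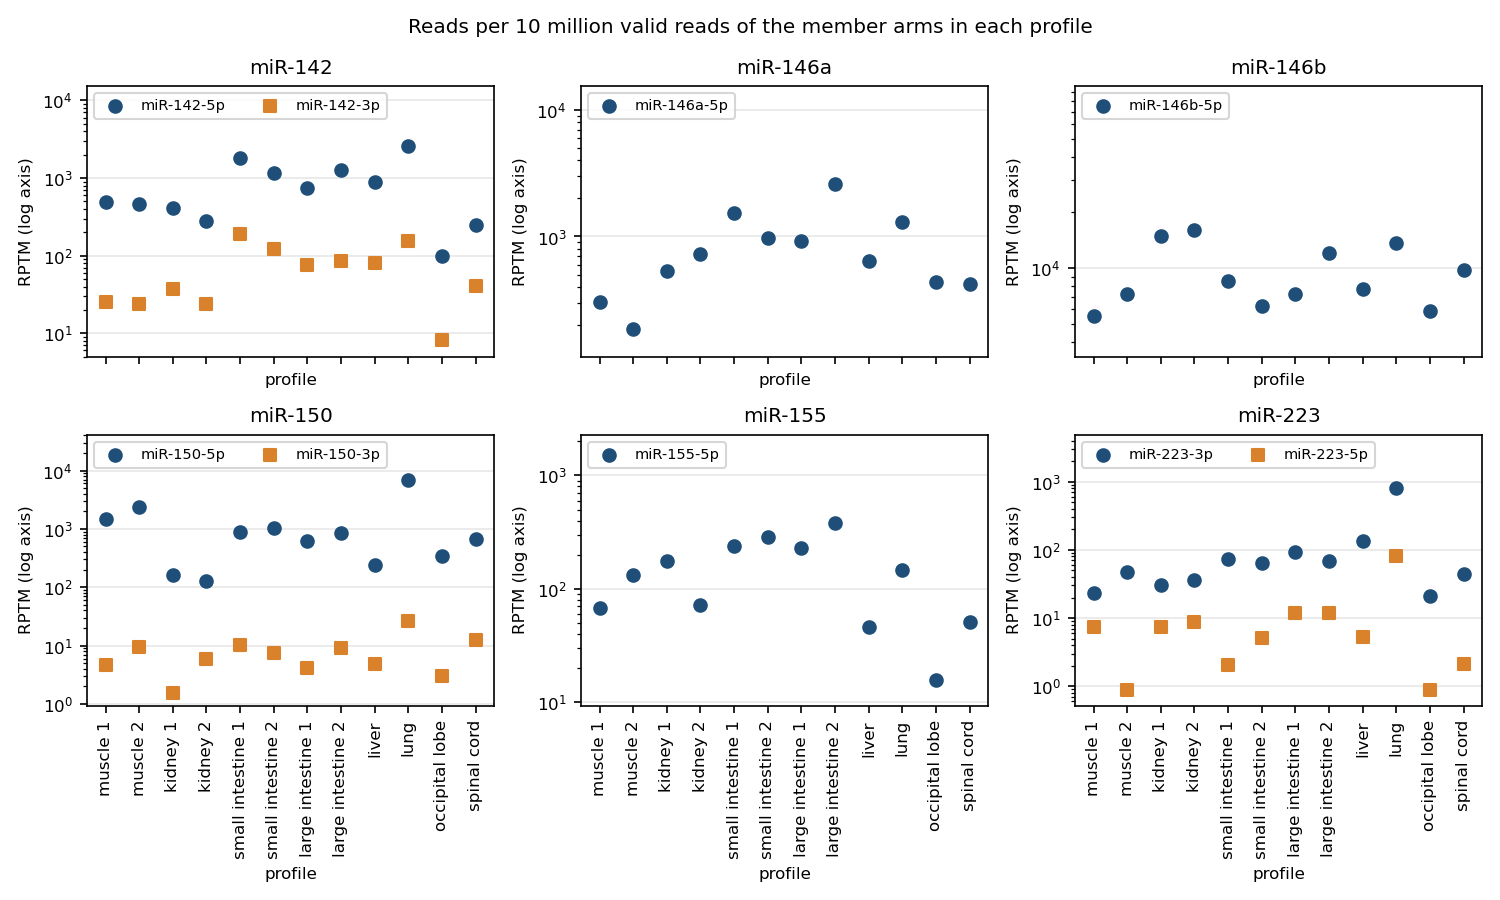
Each panel is 1 of the 6 pre-miRNAs, with the 12 profiles along the horizontal axis and the level in RPTM on a logarithmic vertical axis, circles for the leading arm and squares for the other arm. On this scale lung is highest for miR-142-5p, miR-150-5p and miR-223-3p, the intestines for miR-146a-5p and miR-155-5p, and kidney for miR-146b-5p, an order that turns for miR-142-5p with TMM-scaled counts (small intestine 1 highest) and for miR-146b-5p per assigned reads (lung highest). The vertical ranges differ between panels.

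The members were compared between tissues to ask whether each organ had more or less of them than the other organs. Each tissue was set against the mean of the other 6 groups, occipital lobe and spinal cord being joined as neural tissue, with edgeR's quasi-likelihood test and Benjamini-Hochberg adjustment over all 371 mature sequences. The comparisons share their profiles, and liver and lung have 1 profile each, which is assumed to vary like the groups with 2. Occipital lobe and spinal cord are different tissues, so the estimate of the spread that all comparisons share includes the difference between them. Counts of arms above or below every other profile were made on the RPTM scale, not with TMM-scaled counts. Scaling by valid reads in place of TMM factors moved the median log2 fold change of all 371 by -0.42 in kidney, -0.72 in small intestine, -0.81 in large intestine, 1.09 in neural tissue, 0.10 in liver and 0.64 in lung, and by -0.03 in muscle. TMM factors (trimmed mean of M values) are set by the bulk of the miRNAs of a profile. The median of the members minus that of all 371 is given below in both scalings. Scaling shifts all sequences of a comparison nearly alike, so this difference must stay nearly the same and is no check of the scaling. From TMM to valid reads the members' own median went from 1.06 to 0.34 in small intestine and from 1.32 to 0.49 in large intestine. It went from 1.44 to 2.09 in lung, -2.76 to -1.50 in neural tissue and -0.71 to -1.13 in kidney. In liver it went from -0.41 to -0.30, and in muscle from -0.67 to -0.68.

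In lung 4 of the 9 member arms rose, against 7.01% of all 371 tested. mml-miR-223-3p rose by a log2 fold change of 3.24 (SE 0.39, adjusted p = 9.81e-05), mml-miR-150-5p by 3.04 (SE 0.33, adjusted p = 5.49e-05), mml-miR-223-5p by 3.42 (SE 0.68, adjusted p = 0.0055) and mml-miR-142-5p by 1.49 (SE 0.42, adjusted p = 0.0318). The call of mml-miR-142-5p was lost under 2 of 19 alternatives, with all aligned reads (log2 fold change 1.23, adjusted p = 0.0574) and with identical reads (adjusted p = 0.0739). On the RPTM scale 5 of 9 arms in lung lay above every other profile, against 12.4% of all tested, and 0 below, against 2.96%. With TMM-scaled counts mml-miR-142-5p did not, with 2957 in lung and 4889 in small intestine 1. mml-miR-146b-5p had a log2 fold change of -0.01 and mml-miR-155-5p of -0.18, neither past the test. No arm fell (0 of 9, against 8.89% of all tested), with 0 at an unadjusted p under 0.05 in edgeR and 0 in DESeq2. The members' median was 1.71 above that of all sequences, and 1.73 under valid reads, where 64 of 371 were higher and 13 lower in place of 26 and 33.

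Beside these lung values the endothelial mml-miR-126-3p was also higher in lung, at 9051 RPTM against 325 to 2049 in the others. Of the erythroid list, 1 of 4 arms was called higher in lung and none lower, with a summed level of 266761 RPTM in lung against 9408 to 822508 elsewhere. The sum is mostly mml-miR-486-5p, which is known from skeletal muscle too, and mml-miR-451-5p, the red cell miRNA, was at 1362 RPTM in lung, 5006 in muscle 2 and 46.1 to 663 in the other profiles. None of the leading erythroid and endothelial arms was at 0 in any profile. Epithelial arms were higher too, 4 of 6, with a sum of 10664 RPTM in lung, where mml-miR-141-3p was highest at 9354 RPTM. The part of these markers in the result was not tested. Of 19 tested arms of other leukocyte-related miRNAs, such as the miR-17 cluster, none was called in lung. Their median log2 fold change was 0.67, beside -0.27 over all 371. Their sum in lung was 315689 RPTM against 109509 to 1177700 elsewhere, of which mml-miR-181a-1-5p made 233706. In RPTM lung was the highest profile for mml-miR-17-5p, mml-miR-19a-3p, mml-miR-19b-1-3p, mml-miR-20a-5p, mml-miR-511-5p and mml-miR-221-3p. It was not for the leading arms of mml-mir-342, mml-mir-21, mml-mir-18a, mml-mir-92a-1, mml-mir-181a-1, mml-mir-181b-1 and mml-mir-222.

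In small intestine 5 of 9 member arms rose, against 13.2% of all tested. mml-miR-142-3p had a log2 fold change of 2.33 (SE 0.40, adjusted p = 0.00114), mml-miR-155-5p of 2.16 (SE 0.38, adjusted p = 0.00138), mml-miR-142-5p of 1.96 (SE 0.32, adjusted p = 0.000844), mml-miR-146a-5p of 1.58 (SE 0.40, adjusted p = 0.0154) and mml-miR-150-5p of 1.06 (SE 0.30, adjusted p = 0.025). Scaled by valid reads 3 arms were called, without mml-miR-146a-5p and mml-miR-150-5p. No arm fell (0 of 9, against 4.58%), with 0 at an unadjusted p under 0.05 in edgeR and 0 in DESeq2. Both profiles lay above all others for 0 arms (3.23% of all tested) and below for 0 (5.12%). The members' median was 1.15 above that of all sequences in both scalings, while the calls over all sequences went from 49 higher and 17 lower to 28 higher and 90 lower. Without small intestine 1 only 1 arm was called, and without small intestine 2 there were 3. mml-miR-150-5p lost its call in 10 of 22 alternatives, 6 of which leave out a profile.

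In large intestine 4 of 9 rose, against 11.9% of all tested. mml-miR-155-5p had a log2 fold change of 2.55 (SE 0.37, adjusted p = 0.000368), mml-miR-146a-5p of 2.29 (SE 0.39, adjusted p = 0.00127), mml-miR-142-5p of 1.42 (SE 0.33, adjusted p = 0.0107) and mml-miR-142-3p of 1.32 (SE 0.42, adjusted p = 0.0467). Scaled by valid reads the 2 with the largest change, mml-miR-155-5p and mml-miR-146a-5p, were called. No arm fell (0 of 9, against 4.85%), with 0 at an unadjusted p under 0.05 in edgeR and 0 in DESeq2. Both profiles lay above all others for 0 arms (0.27% of all tested) and below for 0 (5.39%). The members' median was 1.31 above that of all sequences, and 1.28 under valid reads, where 21 of 371 were higher and 79 lower in place of 44 and 18. The count depended on single profiles, with 1 arm called without large intestine 2 and 7 without lung. mml-miR-142-3p kept its call in 10 of 22 alternatives.

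Beside the intestinal values the markers of epithelium and smooth muscle were higher too. All 6 tested epithelial arms and all 4 smooth muscle arms were called higher in small and in large intestine. The epithelial sum was 11565 and 6351 RPTM in small and 10526 and 3850 in large intestine, against 11.3 to 4593 elsewhere outside lung, and the leading arm mml-miR-200c-3p was at 0 in liver, occipital lobe and spinal cord. mml-miR-143-3p of smooth muscle was at 2345170 to 3567910 RPTM in the 4 intestinal profiles. The erythroid list had 2 of 4 arms lower in both intestines, with sums of 15239 and 17320 RPTM in small intestine and 9408 and 12986 in large intestine, and the endothelial mml-miR-126-3p was lower, at 325 to 444 RPTM. Of the 19 leukocyte-related arms, 4 were higher and 1 lower in small intestine, and 2 were higher and none lower in large intestine, with sums of 109509 to 127807 RPTM. Their part in the result was not tested.

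In neural tissue 8 of the 9 arms fell, against 24.5% of all tested that fell and 43.7% that rose. mml-miR-142-5p fell with a log2 fold change of -3.63 (SE 0.47, adjusted p = 2.52e-05), followed by mml-miR-155-5p with -3.30 (SE 0.55, adjusted p = 0.000187), mml-miR-142-3p with -2.79 (SE 0.56, adjusted p = 0.000701) and mml-miR-223-3p with -2.76 (SE 0.48, adjusted p = 0.000236). mml-miR-223-5p had -3.76 on 2 and 5 reads. The members' median log2 fold change was -2.76, and -1.50 under valid reads, beside 0.88 and 1.97 over all 371. The members' median minus that of all sequences was -3.64, and -3.47 under valid reads, a difference that includes the higher median of all sequences. Under valid reads 231 of 371 were higher and 47 lower in place of 162 and 91. mml-miR-142-5p alone, 1 of 9, lay below every other profile in both, against 5.66% of all tested, and 0 lay above, against 43.4%. Of the called arms, 3 were not called when scaled by valid reads, with log2 fold changes of -0.91 for mml-miR-146a-5p, -0.28 for mml-miR-146b-5p and -0.68 for mml-miR-150-5p. On the plain RPTM scale these 3 arms of the neural profiles lay inside the range of the others. No arm rose, with 0 at an unadjusted p under 0.05 in edgeR and 0 in DESeq2. Spinal cord was above occipital lobe for 8 of the 9 tested arms, mml-miR-146a-5p being the exception. Neural markers such as mml-miR-124a-1-3p, with 10508 RPTM in occipital lobe and 3278 in spinal cord against 0.871 to 7.26 in the other tissues, were high where the labels place them. Of the leukocyte-related arms, 5 of 19 were higher and 14 lower, with sums of 990897 and 1177700 RPTM made up mostly of mml-miR-181a-1-5p, and the endothelial mml-miR-126-3p was lower at 493 and 1136 RPTM. Epithelial arms, 5 of 6, and smooth muscle arms, 4 of 4, were lower too, with median log2 fold changes of -8.13 and -2.73, and 1 of 4 erythroid arms was higher. The part of these lists in the result was not tested.

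Muscle showed both directions, with 1 of 9 arms higher, against 22.6% of all tested, and 3 lower, against 15.4%. mml-miR-150-5p rose by a log2 fold change of 1.52 (SE 0.29, adjusted p = 0.00126), while mml-miR-146a-5p had -1.88 (SE 0.52, adjusted p = 0.012), mml-miR-142-3p -1.48 (SE 0.51, adjusted p = 0.0381) and mml-miR-223-3p -1.42 (SE 0.43, adjusted p = 0.0219). The members' median minus that of all sequences was -0.45, and -0.43 under valid reads. On the RPTM scale mml-miR-146a-5p alone, 1 of 9, lay below every other profile, against 3.5% of all tested, and 0 above, against 8.63%. Without either muscle profile, or without lung, 2 arms were called in place of 4. mml-miR-142-3p kept its call in 10 of 22 alternatives. The 2 muscle profiles stood far apart in the erythroid mml-miR-451-5p, with 295 RPTM in muscle 1 and 5006 in muscle 2, and 3 of 4 erythroid arms were called higher in muscle. The endothelial mml-miR-126-3p was also higher, at 1769 and 2049 RPTM, 4 of 6 epithelial arms were lower, with sums of 58.4 RPTM in muscle 2 and 181.5 in muscle 1, and of 19 leukocyte-related arms 2 were higher and 2 lower, with sums of 155420.0 and 219737 RPTM. In muscle 2 mml-miR-150-5p, mml-miR-155-5p and mml-miR-223-3p were 1.60, 1.93 and 2.05 times those of muscle 1. mml-miR-146b-5p was 1.31 times and mml-miR-150-3p 2.09 times that of muscle 1. The other tested arms were lower in muscle 2 than in muscle 1. They were mml-miR-146a-5p (186 and 301 RPTM), mml-miR-142-5p (466 and 487), mml-miR-142-3p (24.0 and 25.4) and mml-miR-223-5p (0.871 and 7.51). The part of the lists in the results was not tested.

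In kidney mml-miR-146b-5p rose and mml-miR-150-5p fell, that is 1 of 9 arms against 12.9% of all tested, and 1 of 9 against 4.58%. mml-miR-146b-5p had a log2 fold change of 1.31 (SE 0.32, adjusted p = 0.012), which was 0.87 (adjusted p = 0.0561) under valid reads. On the RPTM scale alone both kidney profiles lay above all others for it, 1 of 9 arms against 3.23% of all tested. mml-miR-150-5p had -2.40 (SE 0.38, adjusted p = 0.000679), with both profiles below all others, 1 of 9 against 3.5%. Under valid reads mml-miR-223-3p was also called lower, at -1.52 (adjusted p = 0.0423), and over all sequences 31 were higher and 42 lower in place of 48 and 17. The members' median minus that of all sequences was -0.42, and -0.43 under valid reads. Without kidney 2 only 1 arm was called. Epithelial arms were higher in kidney too, 4 of 6, with sums of 4593 and 2293 RPTM. Of the leukocyte-related arms 4 of 19 were higher and none lower, with sums of 165989 and 157549 RPTM, and no erythroid or endothelial arm was called. Their part in the result was not tested.

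In liver only mml-miR-150-5p passed the test, lower by a log2 fold change of -2.07 (SE 0.51, adjusted p = 0.0139), 1 of 9 against 12.1% of all tested. mml-miR-223-3p in liver had a log2 fold change of 0.76 and an adjusted p of 0.299. No arm rose (0 of 9, against 11.9%), with 0 at an unadjusted p under 0.05 in edgeR and 0 in DESeq2. DESeq2 called mml-miR-155-5p lower as well (in edgeR its log2 fold change was -1.56, adjusted p = 0.115). No arm lay above (4.58% of all tested) or below (8.09%) every other profile in liver. The members' median minus that of all sequences was -0.22 in both scalings. In the liver profile 55.8% of the reads aligned to a pre-miRNA, against 81.0% to 95.4% in the others. Both tested liver marker arms were higher in liver and 1 of 4 erythroid arms was lower, with an erythroid sum of 120137 RPTM, while none of 19 leukocyte-related, 6 epithelial, 4 smooth muscle and 1 endothelial arms was called. The part of these in the result was not tested. The ratio of mml-miR-223-3p to mml-miR-150-5p within a profile was highest in liver at 0.564, then 0.277 and 0.186 in kidney, 0.119 in lung, 0.0633 to 0.15 in the intestines, 0.0600 and 0.0640 in the neural profiles, and lowest in muscle at 0.0156 and 0.0200. Lung thus had the most of both miRNAs, but not the highest ratio between them.

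**Figure D2:**
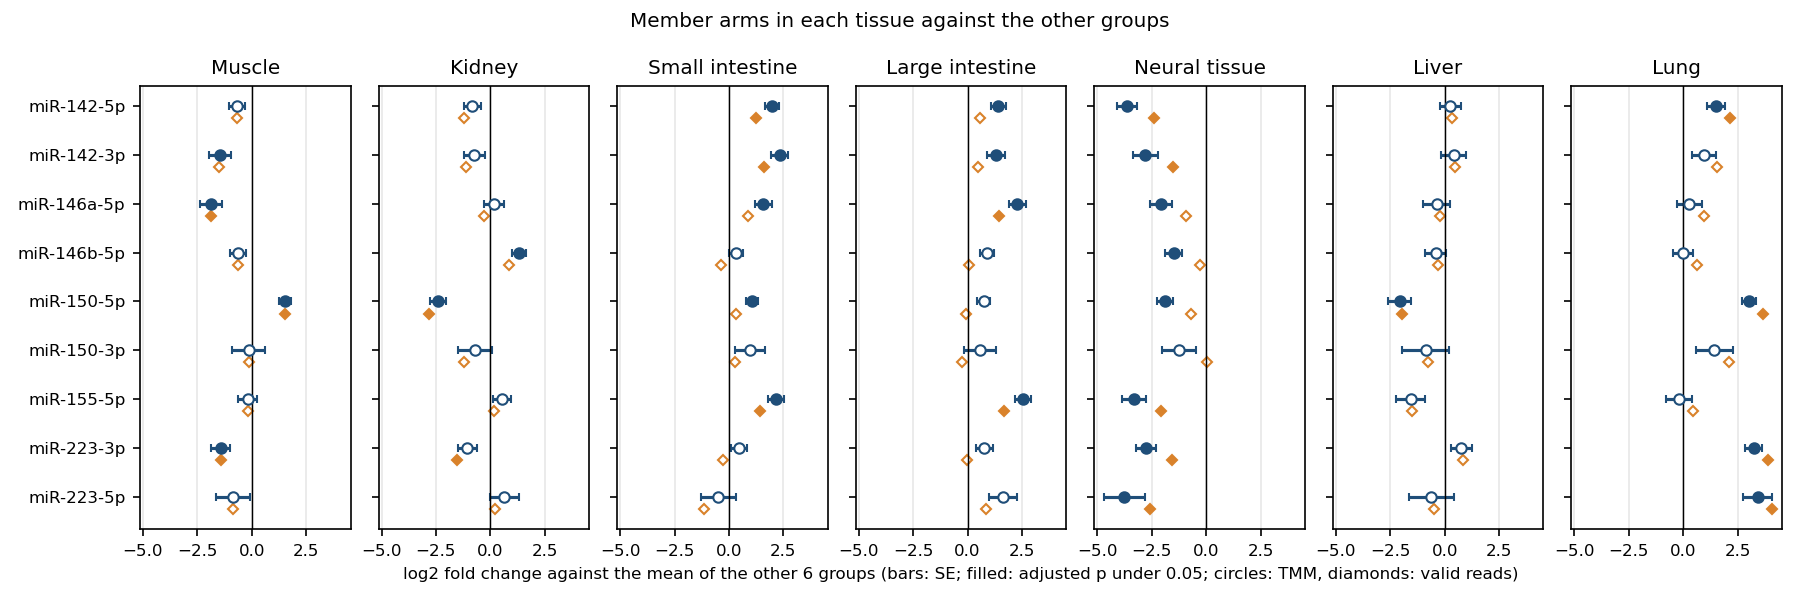
Log2 fold change of each of the 9 tested arms in the 7 comparisons, with TMM scaling as circles with SE bars and valid-read scaling as diamonds, filled where the adjusted p was under 0.05. miR-223 and miR-150 stand out to the right in lung, all arms lie to the left in neural tissue under TMM, and the diamonds show where the scaling moves a whole panel.

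Agreement among the members was described by Pearson's r of log2(RPTM + 1) between the leading arms over the 12 profiles, which are not independent because several come from 1 tissue. Of 15 pairs 14 had an r above 0, with a median of 0.389 and a range from -0.22 to 0.77, beside a median of 0.236 over all 68635 pairs of tested sequences. The highest were those of mml-miR-142-5p with mml-miR-223-3p (r = 0.77, Spearman's rho = 0.80) and with mml-miR-155-5p (r = 0.75, rho = 0.65). The lowest was that of mml-miR-146b-5p with mml-miR-150-5p (r = -0.22, rho = -0.38). Scaled by TMM, which shifts all miRNAs of a profile together, the median was 0.626 and all pairs were above 0, beside a median of 0.0112 over all pairs. Without lung the median was 0.325, 11 pairs were above 0, and the r of mml-miR-150-5p with mml-miR-223-3p went from 0.55 to 0.06. The lowest r was then -0.61 (rho = -0.60 at its lowest). Without both neural profiles the median r was 0.369 and the median rho 0.176, in place of 0.392. mml-miR-146b-5p had an r with the other 5 of -0.22 to 0.39 on the RPTM scale, while the 4 pairs of mml-miR-142-5p with the remaining members had 0.54 to 0.77. This depended on the scale. With TMM-scaled counts mml-miR-146b-5p had 0.77 with mml-miR-146a-5p, 0.76 with mml-miR-155-5p and 0.62 with mml-miR-142-5p. It had 0.46 with mml-miR-223-3p and 0.04 with mml-miR-150-5p, and the same 4 pairs of mml-miR-142-5p had 0.63 to 0.86. The name of the set as immune cell miRNAs rests on outside knowledge, and mml-miR-146b-5p varied least of the 6 on the RPTM scale.

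**Figure D3:**
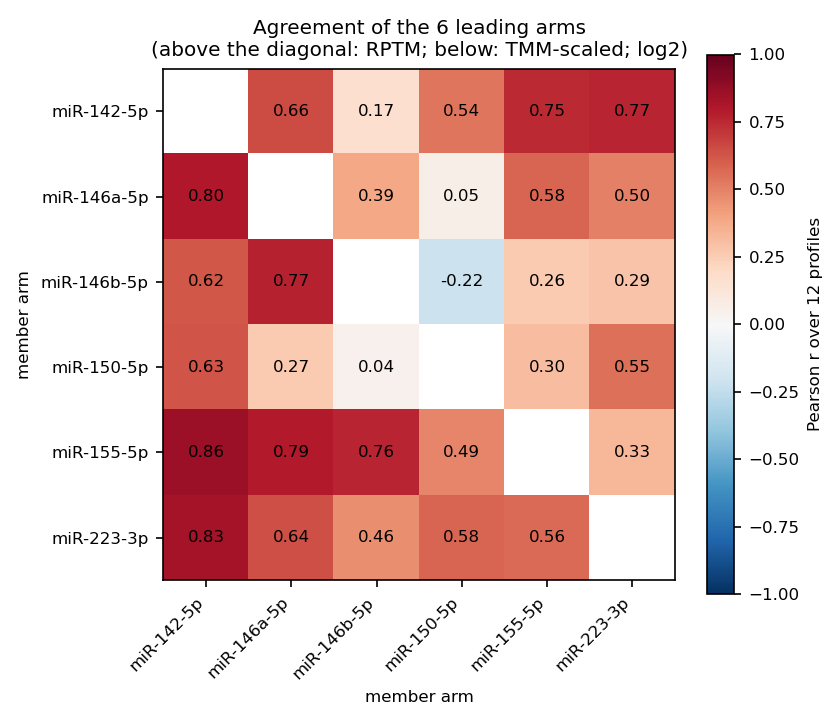
Pearson's r over 12 profiles between the 6 leading arms on a log2 scale, above the diagonal from RPTM and below it from TMM-scaled counts, colour running from -1 (blue) to 1 (red). Above the diagonal the values run from -0.22 to 0.77 with miR-146b-5p lowest, and below it all are above 0.

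The miRNAs outside the set most like each member were named by the highest r over the same 12 profiles. For mml-miR-142-5p they were mml-miR-20a-5p (r = 0.92), mml-miR-19a-3p (0.90) and mml-miR-145-3p (0.85), of which the first and second belong to the miR-17 cluster. For mml-miR-223-3p they were mml-miR-19b-1-3p, identical to mml-miR-19b-2-3p (0.84), mml-miR-20a-5p (0.83) and mml-miR-1262-3p (0.80). For mml-miR-150-5p they were mml-miR-17-3p (0.85), mml-miR-25-3p (0.79) and mml-miR-16-2-3p (0.79). For mml-miR-155-5p they were the smooth muscle miRNAs mml-miR-143-3p (0.90) and mml-miR-145-3p (0.86) and the epithelial mml-miR-200c-3p (0.89). For mml-miR-146a-5p they were mml-miR-141-5p (0.82), mml-miR-375-3p (0.78) and mml-miR-203-3p (0.78), of which the first and the third are known from epithelia. For mml-miR-146b-5p they were mml-miR-224-5p (0.72), mml-miR-508-3p (0.65) and mml-miR-582-3p (0.65).

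The ends of the reads showed that most reads of both miR-142 arms in all 12 profiles began elsewhere than at the annotated start. Of the mml-miR-142-5p reads 69.4% (muscle 1) to 79.0% (small intestine 2) started 2 nt before the annotated start, with a median of 73.0%, and 20.4% to 29.5% started at it. Of the mml-miR-142-3p reads 41.5% (occipital lobe) to 63.5% (lung) started 3 nt after the annotated start, with a median of 55.7%. The shift was seen in all 12 profiles. A shifted start moves the seed, as the most abundant read of each arm shows with bases 2 to 8 in capitals.
most abundant mml-miR-142-5p read: cCCAUAAAguagaaagcacu
most abundant mml-miR-142-3p read: aGUGUUUCcuacuuuauggaug

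The first has the seed CCAUAAA, which no listed mature miRNA had, and made up 46.7% of the mml-miR-142-5p reads that matched apart from a 3′ tail, and the second, whose seed GUGUUUC was that of 1 listed mature sequence, 52.1% of the mml-miR-142-3p reads. Both end or start 3 nt from the annotated position and so lie outside the counting rule, which allows 2 nt. When every aligned read overlapping the arm was counted, mml-miR-142-5p was at 351 (occipital lobe) to 8811 RPTM (lung) and mml-miR-142-3p at 23.5 to 602 RPTM, with lung highest and occipital lobe lowest for both. The other leading arms began at the annotated base in 88.9% to 100% of the reads. They differed at the 3′ end. mml-miR-146b-5p ended 1 or 2 nt after the annotated end in nearly all exact reads, with medians of 41.9% and 55.4%, and mml-miR-155-5p 1 nt after it (median 61.5%), while mml-miR-150-5p ended at it (median 83.0%). The ends of mml-miR-223-3p were spread, with medians of 34.1% at 2 nt before it, 21.9% at 1 nt before it and 21.4% at it, and the first of these led in 8 of 12 profiles.

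**Figure D4:**
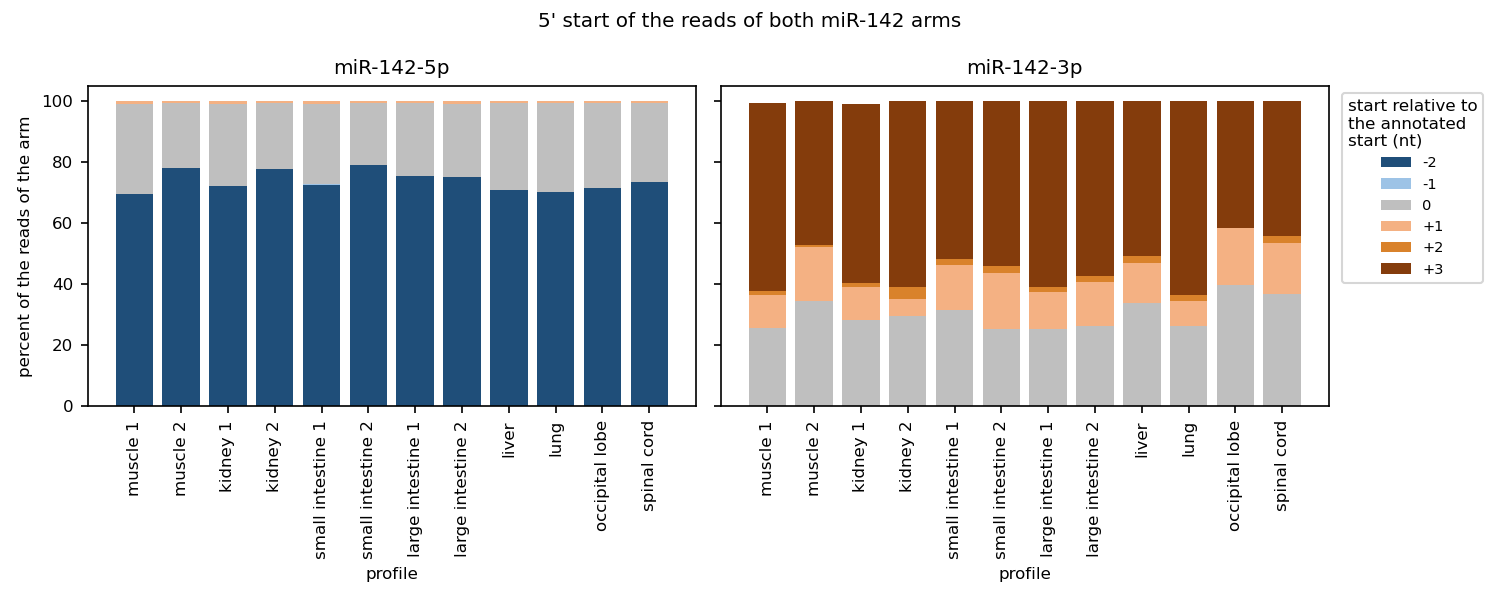
Stacked bars give, for each of the 12 profiles, the percentage of reads of miR-142-5p (left) and miR-142-3p (right) by their 5′ start relative to the annotated start, in nt. The start at -2 holds 69.4% to 79.0% of the miR-142-5p reads, and the start at +3 holds 41.5% to 63.5% of the miR-142-3p reads.

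A 3′ tail is here 1 or 2 terminal bases of which the first does not match the hairpin, while the second may match it. Tails were more frequent on mml-miR-155-5p than on the other 5 leading arms in 11 of 12 profiles. The exception was muscle 2, where mml-miR-146a-5p had more. The share on mml-miR-155-5p was 41.7% (large intestine 2) to 66.4% (occipital lobe), above the share over all pre-miRNAs in all 12 profiles, which was 20.7% to 38.8%. The first base of these tails was A in 70.2% of the mml-miR-155-5p tails and C in 23.1%. Over all pre-miRNAs it was A in 14.9% (large intestine 1) to 38.6% (kidney 1) and C in 32.2% (large intestine 2) to 64.5% (large intestine 1). On the other leading arms A came first in 61.9% (mml-miR-150-5p), 44.7% (mml-miR-146a-5p), 13.0% (mml-miR-223-3p), 10.9% (mml-miR-146b-5p) and 6.59% (mml-miR-142-5p). Of the 5033 tailed reads of mml-miR-155-5p, 670 and 608 were of 2 forms with the tail AU, whose last base matches the hairpin. Such reads can equally be 1 changed base before a matching end, so the tail share and the share of A include them. mml-miR-146a-5p also had more tails than all pre-miRNAs together in all 12 profiles, with 31.4% to 46.2%, and mml-miR-146b-5p, with the same seed, in 3 of 12, with 15.3% to 38.6%. mml-miR-150-5p had 15.4% in lung, where its level was highest, and 43.1%, 43.2% and 43.9% in kidney 1, kidney 2 and liver, where its level was lowest. Because the counting rule takes exact reads, these reads are not in the levels above. When all aligned reads were counted, mml-miR-155-5p was still highest in large intestine 2, at 712 RPTM, and lowest in occipital lobe, at 47.8 RPTM.

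**Figure D5:**
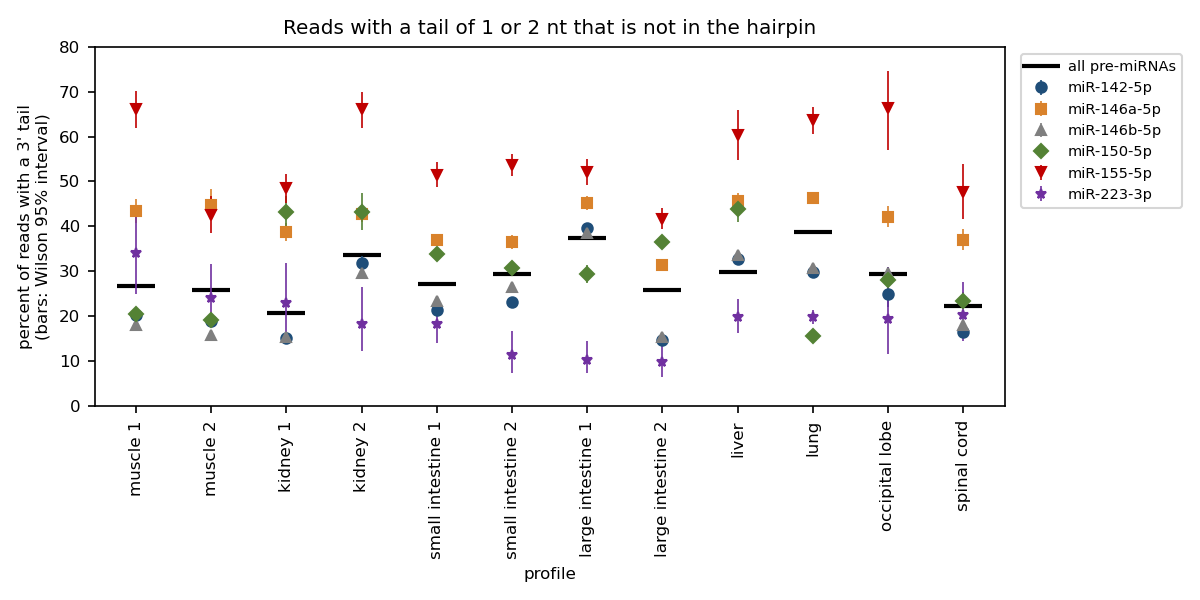
For each of the 12 profiles, the points give the percentage of reads of each leading arm with a 3′ tail of 1 or 2 nt, with Wilson 95% intervals as bars. Of a tail only the first base has to differ from the hairpin. The black dashes give the percentage of all pre-miRNAs together. miR-155-5p lies above the dash in every profile, as does miR-146a-5p, and miR-150-5p lies below it in lung and above it in kidney and liver.

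Of 498 places in the member hairpins with at least 1 read carrying another base, 7 passed the criteria for a site, 1.41% against 2.04% over all pre-miRNAs. In mml-miR-146b-3p 1085 of 1089 reads over 12 profiles carried the change G7A, counted from 1 at the 5′ end of the arm (G51A in the hairpin), between 96.7% and 100% in each profile. Such reads do not match the annotated arm and are not counted under the exact rule. The most abundant of them is shown here with the changed base as a capital.
most abundant mml-miR-146b-3p read: ugcccuAuggacucaguucugg

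Counted with the change, mml-miR-146b-3p was at 21.7 (large intestine 1) to 51.4 RPTM (large intestine 2) and made up 0.0944% to 0.487% of both arms. It varied by 2.37 times over the 12 profiles. The position lies in the seed of the arm. For mml-miR-146a-3p the reads were too few to look for such a change, with 0 under the exact rule and 3 when every aligned read overlapping the arm was counted. A second change inside an arm, U21C in mml-miR-146a-5p (U41C in the hairpin), passed the criteria in spinal cord alone, with 102 of 1737 reads or 5.87%, and was at 0.800% to 4.32% in the other 11 profiles. Its position and base are those at which mml-miR-146b-5p differs, beside G18A. A read with G at base 18 and C at base 21 is thus 1 change away from either arm and was counted at both. At base 18 of mml-miR-146b-5p (position 26 of the hairpin) 774 of 384868 reads, or 0.201%, carried G, beside 772 of 41452 with U21C. Which hairpin such reads came from cannot be told, so the share of U21C can be too high. A read with a change at its last or last but 1 base is scored as tailed, and counts neither as changed nor as covering. Unchanged reads with the same end do count as covering, so that shares at sites near the 3′ end of the reads, such as U21C, can be too low. The remaining 5 sites lay outside the annotated arms. In mml-mir-146b they were A34G (84.5% of 677 reads over it), G33U (13.9% of 1263) and G33A (11.6% of 1263), 3 or 4 nt past the end of the 5′ arm. Few of the 385954 reads of this hairpin reached these positions. In mml-mir-150 they were C38U (6.41% of 1357 reads) and G15C (17%, of 159 reads), next to the ends of its 5′ arm. Positions are counted from 1 at the 5′ end of the hairpin. A34G passed in 12 profiles, G33U in 8, G33A in 5 and the others in 1 each. With mismatches near the read ends left out, 3 sites were called in place of 7.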

How the data were processed

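The authors isolated total RNA, sequenced small RNA libraries on an Illumina HiSeq sequencer, kept reads with scores of at least 30 over the first 25 bases, removed the 3′ adapter and discarded sequences under 18 nt. The deposited values are raw counts of each unique sequence per profile, without normalization, 22118095 to 25579064 reads each. They are counts of unaligned sequences, so that no genome build bears on them.

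Reads were aligned without gaps to the 831 pre-miRNA sequences, with 1 mismatch at most and a 3′ tail of at most 2 bases. The first tail base does not match the hairpin, the second may, and a tail was preferred to a mismatch. Counted were reads that match exactly with both ends within 2 nt of a mature miRNA, identical mature miRNAs once. RPTM is reads per 10000000 valid reads. Mature sequences were tested if their mean reached 5 RPTM and their SD 1 RPTM, with edgeR 4.0.16 (R 4.3.3; quasi-likelihood test, two-sided, TMM factors, no replicate block). Alternatives were DESeq2 1.42.0, scaling by valid reads, no filter, other read-counting rules, 8 groups, a replicate block and each profile left out. Shares have Wilson 95% intervals, which cover counting error only. A mismatch site needed a level of at least 5%, at least 10 changed reads and an adjusted p under 0.05 in an exact binomial test, one-sided, against an error rate of 0.001. Python 3.11.15, numpy 2.4.6, pandas 2.3.3 and scipy 1.17.1 were used. The alignment and the test were checked on simulated data.

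The named miRNAs are both arms of the 6 pre-miRNAs, for each leading arm the 3 sequences with the highest r, and listed markers by counts with the level of their leading arm. The members, lists and tests were chosen with earlier results of these data known. The 831 pre-miRNAs are the part of the study's list that was at hand, further entries being not used here, and all counts over tested sequences refer to it.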

Additional observations from a re-analysis of the deposited data

Results flagged for a closer look

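Some reads of the members lie outside the counts that the comparisons used. The most abundant mml-miR-142-5p read, which starts 2 nt before and ends 3 nt before the annotated arm, had 44969 reads over the 12 profiles. The most abundant mml-miR-142-3p read, which starts 3 nt into the arm, had 3212 reads. Of mml-miR-146b-3p, 1085 reads with the change G7A (counted from 1 at the 5′ end of the arm) were outside the exact counts. The 3′ side of mml-mir-155 had 8 exact reads. No group had the 4 samples needed to look for a profile far from the rest of its group.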

How the results depend on the processing

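Of 28 calls of an arm in a comparison, 12 were made under every alternative run, 9 were lost under valid-read scaling, 12 by leaving out a profile and 0 under DESeq2. Counts of called arms moved as follows, and the cause was not tested. Under valid reads they went from 5 to 3 in small intestine, 4 to 2 in large intestine and 8 to 5 in neural tissue. Identical reads only gave 1 in kidney in place of 2, 8 groups gave 8 in large intestine, and DESeq2 gave 2 in liver in place of 1. Leaving out 1 profile gave 2 to 4 in muscle, 1 to 3 in kidney, 1 to 5 in small intestine, 1 to 7 in large intestine, and 4 to 5 in lung.

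The deviations of the numbered profiles from their tissue means had correlations of -0.15 to 0.147 between tissues over 359 sequences. With 2 profiles a tissue these values cannot tell whether the replicate numbers pair the samples by animal. A fit of the 8 numbered profiles with the replicate block called 7 arms in muscle, 4 in kidney, 5 in large intestine and 3 in small intestine. The fit that omits it called 7, 4, 5 and 2.

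The calls of the erythroid list over the 7 comparisons went from 10 to 16 without a filter and 6 with reads of a single mature sequence (5 to 14 without 1 profile). Those of the endothelial list went from 5 to 3 under valid reads, without a filter and with identical reads (2 to 5), and those of the leukocyte-related list from 34 to between 21 (without small intestine 1) and 57 (without spinal cord). The median share of mml-miR-142-3p was 6.01% over all aligned reads in place of 8.14%. The median r among the members was 0.626 with TMM scaling, 0.449 over tissue means and 0.325 to 0.489 without 1 profile. The median share of mml-miR-142-3p reads starting 3 nt into the arm was 62.1% in exact reads. Mismatch sites numbered 11 at a level of at least 1%, 36 with no tail allowed and 3 with mismatches at least 3 nt from the read end, in place of 7. No value that had been called changed sign. With 1 or 2 profiles a tissue and unknown animals, the spread is poorly known, and levels under the limit a count of 0 allows (3 reads, at most 1.36 RPTM) cannot be read. The lists, the agreement without 1 profile, and the unblocked fit of the 8 numbered profiles were added as alternatives after the data were seen.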
